A study of Mus musculus with 2 samples.

Results

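Autophagy carries cytoplasmic material to the lysosome inside a double-membraned vesicle, the autophagosome. The transcripts described here encode 38 proteins of its machinery and cargo receptors, chosen by gene symbol with a rule that uses no measured value, out of 55536 mouse genes in the annotation. RNA was sequenced after poly(A) selection from macrophages grown from C57BL/6J mouse bone marrow and stimulated at 100 ng/ml for 120 minutes, in 2 libraries labelled biological replicates 1 and 2. The labels name the agent in 2 ways, as Lipid A (the membrane anchor of bacterial lipopolysaccharide) in the description and as lipoprotein A, a protein, in the treatment field. Both libraries stem from separate biosamples that cite 1 donor record, sex and age were not collected, and nothing says whether the cultures came from different animals. There is 1 group, so the values are levels in stimulated cells and not responses to the stimulus. Unstimulated cells were not analysed here.

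In the pathway, a kinase complex around Ulk1 or Ulk2 starts the process and a class III phosphoinositide 3-kinase marks the site with its lipid. Atg9a vesicles and the lipid-transfer proteins Atg2a and Atg2b then feed a growing membrane. Proteins of the Atg8 family fall into an LC3 and a GABARAP branch in mammals. They are trimmed by Atg4 proteases and joined to a membrane lipid by enzymes that resemble those of ubiquitin conjugation. Cargo receptors bind ubiquitin-tagged cargo with one domain and Atg8 proteins with another, and are degraded with the cargo. In macrophages the pathway is known for the capture of intracellular bacteria and for limiting inflammatory signalling, and Tfeb and Tfe3 are the factors known to switch on its genes together with those of lysosomes.

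The Atg8 coding ends are shown because the conjugation system acts on one codon of each, and because the leading member, Gabarap, had a second coding transcript that lacks it. Each line gives the last 45 coding bases before the stop codon, in transcript direction, from the mm10 genome with the GENCODE M21 annotation. Capitals mark the codon of the C-terminal glycine that an Atg4 protease exposes and that is then joined to the lipid.
Map1lc3a-201, chr2:155277590-155277634, plus strand: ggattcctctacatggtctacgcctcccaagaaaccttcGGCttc
Map1lc3b-201, chr8:121596723-121596767, plus strand: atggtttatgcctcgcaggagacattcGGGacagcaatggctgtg
Gabarap-201, chr11:69994477-69994521, plus strand: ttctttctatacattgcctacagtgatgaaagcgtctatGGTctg
Gabarapl1-201, chr6:129541120-129541164, plus strand: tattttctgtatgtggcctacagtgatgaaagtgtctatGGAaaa
Gabarapl2-201, chr8:111952358-111952402, plus strand: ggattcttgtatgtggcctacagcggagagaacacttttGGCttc
Gabarap-202, chr11:69994538-69994582, plus strand: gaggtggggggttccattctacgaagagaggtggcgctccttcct

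After the marked glycine, 5 codons remained in Map1lc3b-201 and 1 codon remained in each of the other 4 canonical transcripts. Gabarap-202 holds 106 codons, against 117 in Gabarap-201. The 2 share their first 170 coding bases and then read differently, and no glycine codon after an aromatic one was found near the end of Gabarap-202, so nothing is in capitals. Within the family, Map1lc3a and Map1lc3b were identical at 74.7% of aligned coding bases and Gabarap and Gabarapl1 at 74.6%. Identity between the branches ran from 50.5% (Map1lc3b and Gabarapl1) to 54.9% (Map1lc3a and Gabarapl2).

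The receptors' counterpart of these ends is the LC3-interacting region, a short stretch that docks onto an Atg8 protein. It is shown for Sqstm1, Optn and Nbr1, in each of which 1 in-frame stretch fitted the classical form, an aromatic and an aliphatic residue with a pair between them and an acidic residue or serine ahead. Capitals mark the codons of the core.
Sqstm1-202, chr11:50202538-50202564, minus strand: ggagacgatgacTGGACACATTTGtct
Optn-202, chr2:5045993-5046019, minus strand: tcggaagactccTTCGTTGAGATCagg
Nbr1-206, chr11:101575130-101575156, plus strand: tcctctgaagatTATATCATCATCctt

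Their genes lay far apart in level, as described for the receptors further on.

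The 2 libraries held 33272581 (replicate 1) and 50266403 (replicate 2) expected counts on mouse genes, the fractional read counts that the authors' quantification assigned to each gene. Levels are given in TPM, a measure of transcript abundance divided by length and by library size, which allows genes to be compared. The 7 macrophage markers checked were present in both libraries, between 34.9 and 19283 TPM. Of the 8 granulocyte markers, 4 reached 1 TPM in each library, and the 8 summed to 517 TPM in replicate 1 and 67.2 TPM in replicate 2. T cell, erythroid and fibroblast markers stayed under 1 TPM, with 2 of the 5 T cell markers (Cd8a and Trac) and 1 of the 3 erythroid markers (Hbb-bs) at 0 counts in both libraries, and 1 of 4 B cell markers (Cd79b) reached 1 TPM. Nuclear ribosomal RNA held 6.82% of TPM in replicate 1 and 10.5% in replicate 2, and mitochondrial genes held 7.12% and 5.64%. What these differences between the libraries contribute to the replicate contrasts given further on was not tested. Counts of the 2 libraries differed by more than sampling noise (chi-square per degree of freedom 121 over 12178 genes), so they are not 1 library deposited again. This does not say whether they came from different animals.

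Transcripts of the whole list were detected. Each of the 38 genes reached 1 TPM in both libraries, as did 43.6% of 22028 protein-coding genes, and the lowest expected count of any of them was 149. Their median level, 14.2 TPM, lay close to the 15.4 TPM of the 9596 protein-coding genes that passed the same minimum, and 17 of the 38 were above that median. The spread was wide: 4 genes averaged 100 TPM or more, 22 averaged 10 TPM or more and 16 averaged less than 10 TPM. Their summed TPM was 4044 in replicate 1 and 3576 in replicate 2. A pair of genes made up most of that sum, since Sqstm1 held 51.2% of it in replicate 1 and 48.7% in replicate 2, and Gabarap held 23.3% and 24.6%.

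By step, the median level was highest for the Atg8 family at 92.8 TPM, followed by the cargo receptors at 87.7 TPM. These medians exchanged places when replicate 1 was used alone, where the receptors stood at 94.8 TPM and the Atg8 family at 91.1 TPM. The remaining steps followed with medians of 34.8 TPM for the transcription factors, 14.9 TPM for the conjugation enzymes and 13.4 TPM for the initiation complex. Below these were the class III kinase complexes at 10.9 TPM, the Atg4 proteases at 9.36 TPM and membrane supply at 7.51 TPM. The value for the transcription factors is the midpoint of 2 genes, Tfe3 at 65.9 TPM and Tfeb at 3.79 TPM on average. The highest and the lowest step median thus differed 12.4-fold. In sequence, 24 of the 38 genes shared under 1% of their 50-base stretches with another gene, 15 of them none, and 11 shared over 5%. Among the 11 were Gabarapl1 (23.1%), Uvrag (17.45%) and Gabarapl2 (12.2%). The same count was not made over all genes. Most single genes could not be ranked against their neighbours: of the 37 neighbouring pairs in the order of levels, 28 had replicate ranges that overlapped. The gaps that were clear of overlap included those below Sqstm1, below Gabarap and below Tax1bp1.

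**Figure D1:**
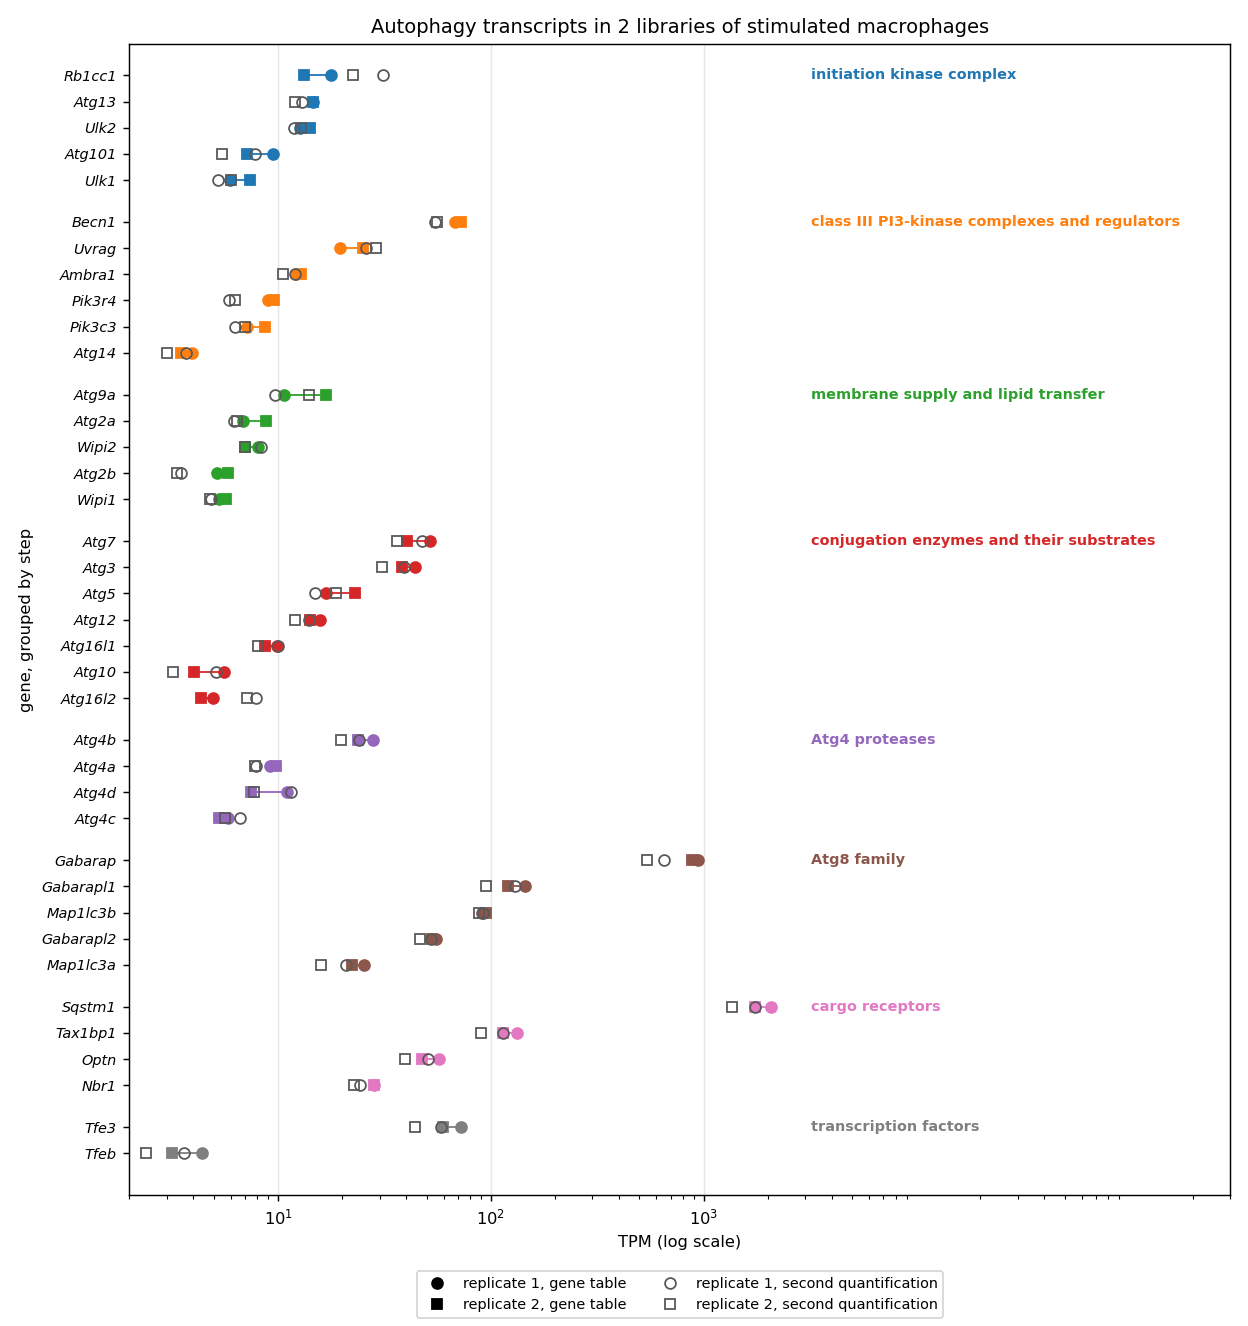
Level of each of the 38 genes in TPM on a log axis, grouped by step and ordered by level within a step. Filled circles and squares are replicates 1 and 2 of the gene table, open ones are the same libraries in the second quantification, and Sqstm1 and Gabarap stand apart from the rest.

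Among the initiation genes, the scaffold Rb1cc1 had the highest mean in the gene table and the kinase Ulk1 the lowest, an order that did not hold in replicate 2, where Rb1cc1 was below Atg13 and Ulk2 and Atg101 was below Ulk1. Rb1cc1 had 17.8 TPM in replicate 1 and 13.2 TPM in replicate 2, from 1365 and 1717 expected counts. Atg13, the subunit that links kinase and scaffold, had 14.6 TPM in both replicates (14.59 and 14.57). Of the kinases themselves, Ulk2 stood above Ulk1 in both libraries, at 12.6 TPM in replicate 1 and 14.1 TPM in replicate 2. Ulk1 had 5.92 TPM in replicate 1 and 7.41 TPM in replicate 2, ranges that did not overlap with those of Ulk2. Atg101, which stabilises Atg13, had 9.43 TPM and 7.12 TPM in replicates 1 and 2.

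By gene TPM, the class III kinase step was led by a regulator and not by the kinase. Becn1, the scaffold that recruits the kinase and its regulators, had 68.0 TPM in replicate 1 and 72.3 TPM in replicate 2 (mean 70.2 ± 3.08, SD, n = 2). Uvrag, a subunit of the complex that acts on endosomes and at late steps, had 19.6 TPM and 25.2 TPM in replicates 1 and 2. Protein-coding transcripts held 18.0% and 19.5% of the Becn1 TPM in replicates 1 and 2, against 97.7% and 93.5% of the Uvrag TPM. In the second quantification the coding shares were lower for both genes, at 5.59% and 6.46% for Becn1 and 39.1% and 39.4% for Uvrag. The lead of Becn1 thus holds for gene TPM and not for coding transcripts. Atg14, which directs the same kinase to the site where autophagosomes form, had 3.95 TPM in replicate 1 and 3.51 TPM in replicate 2, the lowest mean of the 38 genes but one that overlapped with that of Tfeb. The 2 alternative subunits were thus 22.4 TPM (Uvrag) and 3.73 TPM (Atg14) on average, with no overlap between their replicates. The catalytic subunit Pik3c3 had 7.18 TPM in replicate 1 and 8.66 TPM in replicate 2. Its partner kinase-like subunit Pik3r4 had 9.01 TPM and 9.61 TPM, and Ambra1, a regulator of Becn1, had 12.2 TPM and 12.8 TPM.

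The membrane step held the lowest median. Atg9a, the membrane protein of the seed vesicles and a lipid scramblase, had 10.7 TPM in replicate 1 and 16.9 TPM in replicate 2, the widest relative gap of the 38 genes. Atg2a had 6.86 TPM and 8.79 TPM in replicates 1 and 2, and Atg2b had 5.19 TPM and 5.79 TPM. The lipid-binding proteins Wipi2 and Wipi1 had 8.01 TPM and 5.25 TPM in replicate 1 and 7.0 TPM and 5.69 TPM in replicate 2. By their mean over both libraries, all 5 genes of the step fell below the median of expressed protein-coding genes. Atg9a in replicate 2, at 16.9 TPM, was above that median of 15.35 TPM.

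In the conjugation step the activating enzyme and the Atg8-specific transfer enzyme were higher than the ligase subunits. Atg7, the activating enzyme, had 52.0 TPM in replicate 1 and 40.5 TPM in replicate 2. Atg3, which hands Atg8 proteins to the lipid, had 44.3 TPM and 38.1 TPM, and the ranges of Atg7 and Atg3 overlapped. Atg5 and Atg12, which are joined to each other to make the ligase, had 16.8 TPM and 15.7 TPM in replicate 1 and 22.9 TPM and 14.1 TPM in replicate 2. Atg10, the transfer enzyme for Atg12, was far lower than Atg3, at 5.56 TPM in replicate 1 and 4.03 TPM in replicate 2. Its counts of 149 and 157 carry a counting error of 8.19% and 7.98%. Atg16l1, which places the ligase on the membrane, had 9.84 TPM and 8.72 TPM in replicates 1 and 2, above its paralog Atg16l2 at 4.94 TPM and 4.35 TPM. The second quantification brings the paralogs closer, as given below.

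Of the 4 Atg4 proteases, Atg4b stood highest with 28.1 TPM in replicate 1 and 23.7 TPM in replicate 2. Atg4a followed at 9.12 TPM and 9.81 TPM, Atg4d at 11.0 TPM and 7.49 TPM, and Atg4c at 5.81 TPM and 5.27 TPM. The ranges of Atg4a and Atg4d overlapped, and most of the Atg4d level lay in transcripts not annotated as coding, as given below. Of the 50-base stretches of Atg4a, 51.2% also occur in the near-copy Atg4a-ps, to which the authors' quantification gave 4.05 and 1.40 counts.

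In the Atg8 family the highest pair of genes belonged to the GABARAP branch. Gabarap had 942 TPM in replicate 1 and 881 TPM in replicate 2 (mean 911 ± 43.6, SD, n = 2), rank 130 among the 9596 expressed protein-coding genes. It held 74.8% of the family's TPM in replicate 1 and 75.2% in replicate 2. Gabarapl1 had 145 TPM and 120 TPM, and Gabarapl2, at 55.1 TPM and 52.9 TPM, was the lowest of the GABARAP branch. In the LC3 branch, Map1lc3b had 91.1 TPM in replicate 1 and 94.6 TPM in replicate 2, and Map1lc3a had 25.4 TPM and 22.2 TPM. The replicate ranges of the 5 members did not overlap. The share held by Gabarap depended on the scale, being 68.7% and 68.8% of TPM in the second quantification and 61.9% and 60.1% of expected counts, which are not divided by length.

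Among the cargo receptors, Sqstm1 (p62) was by far the highest. It encodes the receptor for ubiquitin-tagged aggregates and bacteria, which is also known as a transcriptional target of Nfe2l2 and as a signalling scaffold. Sqstm1 (chr11:50199366-50210827 of mm10, minus strand) had 2070 TPM in replicate 1 and 1742 TPM in replicate 2, from 82323 and 102208 expected counts. Its mean of 1906 ± 233 TPM (SD, n = 2) ranked 53rd among the expressed protein-coding genes. Of its 50-base stretches, 15.5% also occur on the opposite strand in Mrnip, which received 5.05 and 3.04 counts in replicates 1 and 2. Sqstm1 held 90.5% of the receptors' TPM in replicate 1 and 90.2% in replicate 2. Tax1bp1, a receptor that shares its domain plan with Calcoco2, had 132 TPM and 114 TPM. Optn, a receptor for bacteria and damaged mitochondria, had 57.1 TPM and 47.3 TPM, and Nbr1, which acts beside Sqstm1 on aggregates, had 28.3 TPM and 28.2 TPM. The replicate ranges of the 4 receptors did not overlap, and each of the other 3 receptors was under 6% of the receptors' TPM.

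The 2 transcription factors differed widely in level. Tfe3 had 72.4 TPM in replicate 1 and 59.4 TPM in replicate 2, and Tfeb had 4.41 TPM and 3.17 TPM, the lowest but one of the 38 means. The Tfeb value rests on 184 and 194 counts, and the authors' own estimates of it disagree. Its posterior mean was 8.39 TPM in replicate 1 and 5.89 TPM in replicate 2, with a lower credibility bound of 5.66 TPM and 4.09 TPM that lies above the reported TPM in both libraries. The reported TPM also lay below the lower bound for Ulk1 and Atg16l2 in both libraries, while that of Gabarap, Sqstm1 and Tax1bp1 lay above the upper bound in both libraries. Nbr1 lay outside the interval in replicate 1 alone. In all, 6 genes were outside in both replicates and 7 in at least 1, and the share over all genes was not counted. Some genes of the further list given below, Rab7 and Vamp8 among them, also fell outside in both replicates. Of the genes named here, the relative gap between the estimates was smaller for the high ones. The Sqstm1 posterior means were 1985 and 1685 TPM in replicates 1 and 2.

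The replicates were compared as replicate 1 over replicate 2, in counts scaled to library size (CPM) with trimmed-mean (TMM) factors, and genes averaging under 50 counts were left out. With 1 group and 2 libraries this contrast describes the libraries and no condition, and no test applies. None of the 38 genes was 2-fold or more apart, where 4.0% of 10443 genes were. The background was 2.15% in the direction of replicate 1 and 1.85% in the direction of replicate 2. At 1.5-fold, 1 gene was apart, against 14.6% of all genes. That gene was higher in replicate 2, a direction in which 7.46% of all genes went that far, against 7.13% in the direction of replicate 1. The median absolute log2 ratio was 0.16 for the 38 genes and 0.24 for all genes tested. A 2-fold gap was less frequent among genes with more counts: with a mean count of 200 or more, 2.27% of 8342 genes were 2-fold apart, and still none of 36 autophagy genes.

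The gene past 1.5-fold was Atg9a. It had 855 expected counts in replicate 1 and 2024 in replicate 2, or 24.3 and 42.6 normalised CPM, a log2 ratio of -0.81 (1.76-fold lower in replicate 1). The gap was 1.53-fold to 1.77-fold under the 4 other scalings. Of the 50-base stretches of Atg9a, 29.8% also lie in the overlapping transcript Gm29253 on the same strand, which received 27.1 and 23.2 counts in replicates 1 and 2. Atg5 came next, at -0.56 on the log2 scale, and Ulk1 at -0.52. In the other direction the widest ratios were 0.38 for Atg4d, 0.35 for Atg10 and 0.35 for Tfeb.

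In direction, 18 genes were higher in replicate 1 and 20 in replicate 2, where 46.5% of all genes were higher in replicate 1. The median log2 ratio was -0.01 for the 38 genes and -0.03 for all genes. Some steps leaned to one library. In the class III kinase step 5 of 6 genes were higher in replicate 2, with a median log2 ratio of -0.31, and in the membrane step 5 of 5 were, with a median of -0.28. Under ratios of TPM + 1 the counts were 5 of 6 and 4 of 5, since Wipi2 changed sign there. Both transcription factors were higher in replicate 1 under each of the 5 scalings. The cargo receptors Sqstm1, Optn and Tax1bp1 were higher in replicate 1 by 0.10 to 0.13 on the log2 scale, and Nbr1, at -0.06, turned positive under TPM ratios. In all, 31 of the 38 genes kept one direction under the 5 scalings, 17 of them higher in replicate 1 and 14 in replicate 2. The same count was not made over all genes. Some of the scalings rest on the same counts or the same TPM, so part of this agreement is built in. The TPM scales moved the median of all genes to 0.09 (TPM + 1) and 0.10 (TPM + 0.1), a shift of 0.11 and 0.13, and there 24 of the 38 genes lay above 0 and 21 above the all-gene median.

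**Figure D2:**
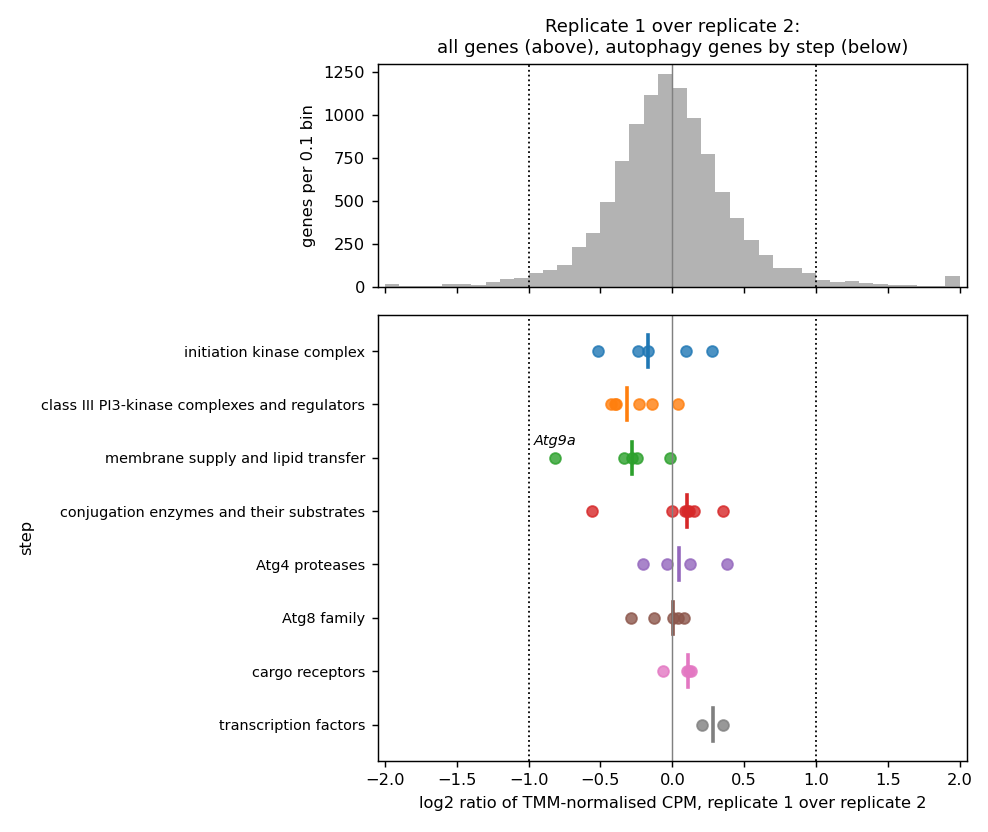
Log2 ratio of TMM-normalised CPM, replicate 1 over replicate 2. The upper panel counts all 10443 genes tested in bins of 0.1, with values past 2 either way put in the end bins, and the lower panel shows each autophagy gene as a point and each step's median as a bar. Dotted lines mark a 2-fold difference, which no autophagy gene reaches, and Atg9a lies farthest out.

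The deposited files also hold a second quantification of the same libraries, whose transcript values were summed by gene. Its TPM were lower overall for both sets, with a median ratio of first over second of 1.17 for the 38 genes and 1.18 for all genes at 1 TPM or more. In it, 5 genes lay 1.5-fold or more from the gene table, against 6.99% of 10285 genes, so for these the level depends on the quantification used. The limit was set around equal values and not around the median ratio. Genes lower in the second quantification thus lay on the side of that median, and those higher in it on the opposite side. Rb1cc1 was higher in the second, at 31.0 TPM in replicate 1 and 22.4 TPM in replicate 2, a ratio of 0.58. Atg16l2 was also higher, at 7.87 TPM and 7.17 TPM, a ratio of 0.62. Gabarap was lower in the second, at 649 TPM and 542 TPM (ratio 1.53), and so were Pik3r4 at 5.90 TPM and 6.27 TPM (ratio 1.53) and Atg2b at 3.51 TPM and 3.35 TPM (ratio 1.60). Sqstm1 stood at 1749 TPM in replicate 1 and 1357 TPM in replicate 2, a ratio of 1.23. Both quantifications put Sqstm1 and Gabarap first and second.

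**Figure D3:**
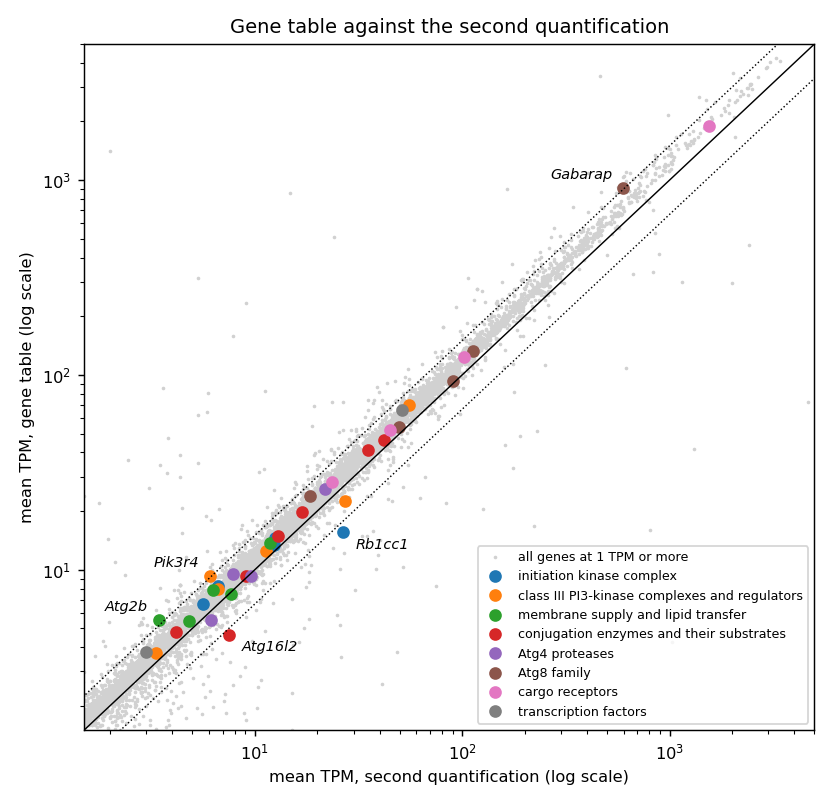
Mean TPM of 2 libraries in the gene table against the mean in the second quantification, both on log axes. Grey points are all genes at 1 TPM or more in both libraries, coloured points are the autophagy genes by step, the solid line marks equal values and the dotted lines 1.5-fold, past which the 5 named genes lie.

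Transcript by transcript, the 38 genes have 286 annotated transcripts, between 2 and 21 per gene. For the 15 genes at 20 TPM or more, the median share of TPM in the leading transcript was 87.7%, against 82.1% over 3887 protein-coding genes of that level with more than 1 transcript. In 5 of the 15 the leading share was under 50%, where 15.98% of the 3887 were. The leading share of the 15 genes was lower in the second quantification, with a median of 67.7%, and there no median was taken over all genes. Sqstm1-202 held 92.0% of the Sqstm1 TPM in replicate 1 and 94.3% in replicate 2, and Tax1bp1-201 held 98.8% and 97.7% of its gene. Both of these high receptors were thus close to a single transcript. At the other end, Tfe3 was divided among several coding transcripts, with Tfe3-204 at 28.5% and 32.3% in replicates 1 and 2 and Tfe3-205 at 30.7% and 23.3%, so that a different one led in each library. Atg7-201 held 40.3% and 49.9%, Atg4b-201 held 35.2% and 35.1%, and Nbr1-206 held 36.0% and 34.9%.

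For Gabarap, 2 coding transcripts with different ends held most of the level. Gabarap-201, the transcript that ends in the glycine codon shown above, held 56.9% of the gene's TPM in replicate 1 and 52.9% in replicate 2. Gabarap-202, without that end, held 37.4% and 39.7%. In the second quantification the shares were 88.3% and 87.7% for Gabarap-201 and 11.3% in both replicates for Gabarap-202. In absolute terms Gabarap-201 alone had 536 TPM and 466 TPM in the first quantification and 573 TPM and 476 TPM in the second, above each of the other 4 Atg8 genes in both quantifications. Gabarap-202 had 353 TPM and 350 TPM in the first and 73.0 TPM and 61.4 TPM in the second, and the retained intron Gabarap-204 had 52.7 TPM and 63.3 TPM in the first and 1.86 TPM and 3.54 TPM in the second.

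Sorted by annotated type in the first quantification, transcripts labelled protein coding held over 90% of the TPM in 25 of the 38 genes. How many of all protein-coding genes passed 90% was not counted. Over the 15 genes at 20 TPM or more the median coding share was 95.6%, against 97.8% for all protein-coding genes of that level. Coding transcripts held under 50% in 2 of the 38 genes, Becn1 and Atg4d. Of the 15 higher genes 1 was under 50%, where 5.09% of the 3887 were. These counts depend on the quantification. In the second, the mean coding share was also under 50% for Uvrag (39.3%), Rb1cc1 (34.7%) and Atg16l2 (32.3%).

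For Becn1 most of the TPM lay in transcripts that are not annotated as coding. Its protein-coding transcripts held 18.0% of TPM in replicate 1 and 19.5% in replicate 2, and 5.59% and 6.46% in the second quantification. Becn1-201, annotated for nonsense-mediated decay, led in both quantifications with 42.7% and 38.3% in the first and 41.5% and 39.6% in the second. Becn1-205, the leading coding transcript, held 9.47% and 12.2%. Of the 50-base stretches of Becn1, 36.8% also occur on the opposite strand in Cntd1, which received 0 counts in both libraries. The strand setting of the counting is not given in the sources used here, so reads from the shared stretches cannot be told apart by strand.

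Atg4d was led by Atg4d-203, annotated as a retained intron, with 57.1% of TPM in replicate 1 and 63.0% in replicate 2. The single coding transcript, Atg4d-201, held 16.3% and 16.4%. Atg4d shares 14.6% of its stretches with Kri1 on the opposite strand, a gene with 751 and 980 counts, so part of the Atg4d level is uncertain. For Map1lc3a the coding Map1lc3a-201 held 49.8% and 54.8%, and the processed transcript Map1lc3a-203 held 50.2% and 45.2%.

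The transcript with the highest mean share differed between the quantifications in 2 genes, a count not made over all genes. Both were among those 1.5-fold apart in level. The leading transcript of Rb1cc1 in the first quantification was the coding Rb1cc1-212, with 25.7% in replicate 1 and 23.4% in replicate 2. In replicate 2 the coding Rb1cc1-201 held more (16.7% and 27.4% in replicates 1 and 2). The second was led by Rb1cc1-202, a processed transcript of 519 bases, with 49.7% and 48.8%. For Atg16l2 the coding Atg16l2-201 led the first with 32.0% and 30.3%, and Atg16l2-216, annotated for nonsense-mediated decay, led the second with 24.6% and 20.6%. Uvrag kept its leading transcript, but the share of Uvrag-201 was 97.7% and 93.5% in the first and 39.1% and 39.4% in the second.

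**Figure D4:**
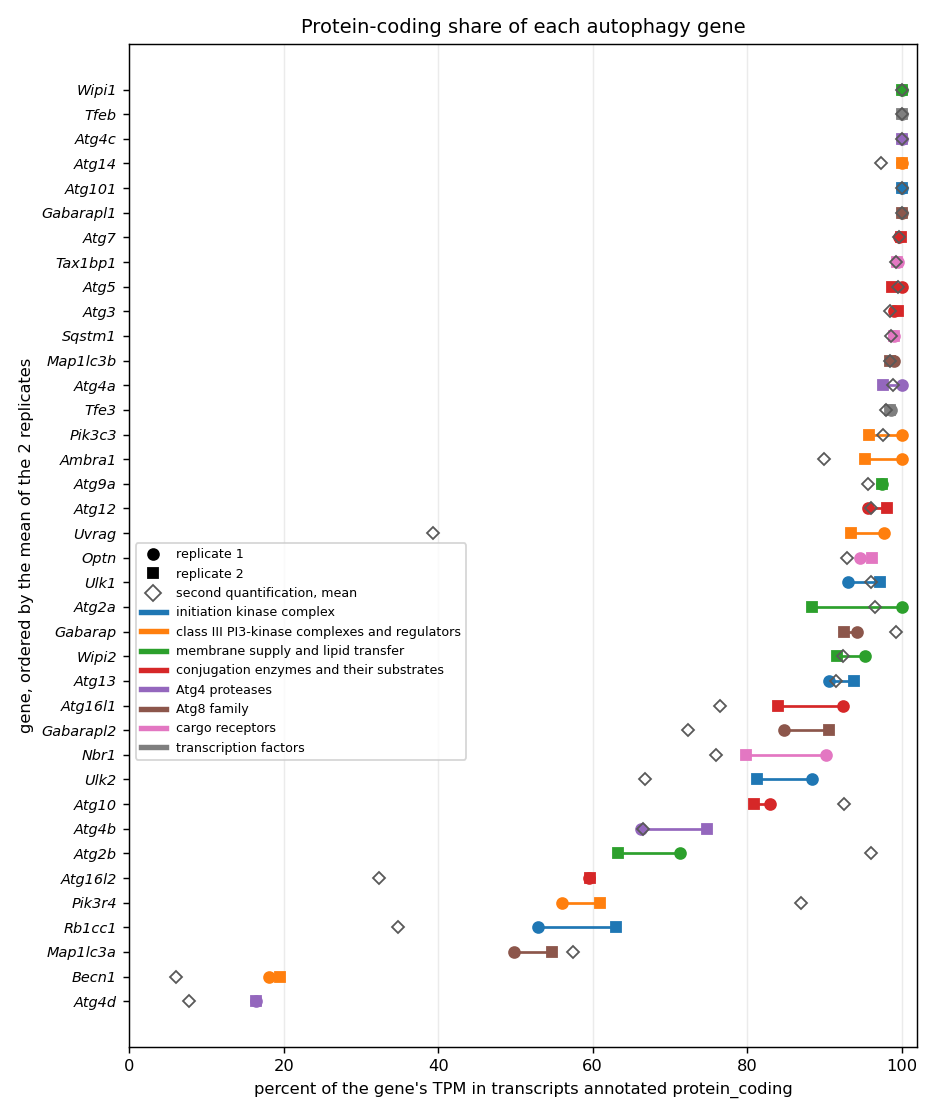
Percent of each gene's TPM in transcripts annotated protein_coding, with genes ordered by the mean of both replicates. Circles and squares are replicates 1 and 2, open diamonds the mean of the second quantification, and Atg4d and Becn1 lie below 20% in both.

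Promoters gave a sequence feature that the choice of genes did not use. RefSeq promoters (GRCm38.p6, 250 bases before to 50 after the start) were matched by symbol for 32 of the 38 genes. Map1lc3a, Becn1, Pik3c3, Rb1cc1, Atg12 and Atg16l1 had no match. The GC box GGGCGG, searched on both strands, was found for 23 of the 32 genes, Sqstm1, Map1lc3b, Optn and Tfeb among them, and in 35.66% of 32851 promoters in the table. A gene with several promoters was counted if any held the motif, and the table also covers genes that are not expressed here. The E-box core CACGTG, which contains the letters that Tfeb and Tfe3 are known to bind, was found for 4 of the 32 (Atg3, Atg5, Atg7 and Atg14), against 7.15% of promoters. The antioxidant response element core TGACNNNGC was found for 4 (Atg13, Map1lc3b, Tax1bp1 and Ulk2), against 12.39%, and TATAAA for 2 (Atg4a and Sqstm1), against 13.62%. These are matches of letters in a window, and no binding was measured. Sequence outside the window was not searched, so a gene without a match, such as Sqstm1 for the antioxidant element, may carry the motif elsewhere.

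A second list held 63 further genes of the pathway, of which 62 were found. Of these, 60 were at 1 TPM or more in both libraries, with a median of 27.7 TPM. Among 17 further cargo receptors, the ferritin receptor Ncoa4 (203 TPM in replicate 1 and 247 TPM in replicate 2) and the endoplasmic reticulum receptor Rtn3 (175 and 191 TPM) were highest, both above Tax1bp1 and below Sqstm1. Calcoco2 (NDP52 in human), a receptor known from human cells for the capture of bacteria, had 0 counts in both libraries, which allows up to 0.13 TPM in replicate 1 and 0.09 TPM in replicate 2 at 3 counts. Another endoplasmic reticulum receptor, Ccpg1, had 18.2 and 32.7 TPM and was the farthest apart of these 17 receptors.

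For fusion with the lysosome, the small GTPase Rab7 had 479 TPM in replicate 1 and 513 TPM in replicate 2 and the fusion protein Vamp8 had 294 and 272 TPM. Those genes stood between Gabarap and Gabarapl1, while the tether Epg5 was low at 2.67 and 2.57 TPM. Upstream, the lysosomal scaffold Lamtor1 had 180 and 151 TPM, and of the catalytic subunits of AMP-activated kinase Prkaa1 had 9.81 and 10.1 TPM while Prkaa2 had 0.05 and 0.06 TPM. Of the further initiation and membrane factors, the membrane protein Vmp1 (86.3 and 94.8 TPM) and Tecpr1 (75.6 and 96.2 TPM) were highest. Rubcnl was the lowest of that group at 1.66 and 4.47 TPM.

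Relatives of Tfeb and Tfe3 were also present. Tfec, the family member known from macrophages, had 195 TPM in replicate 1 and 245 TPM in replicate 2, and Mitf had 39.4 and 49.8 TPM. The order of the 4 genes of this factor family was Tfec, Tfe3, Mitf and Tfeb in both libraries of the gene table, with no overlap between neighbours. In the second quantification Tfe3 (58.4 and 44.2 TPM) and Mitf (37.8 and 44.4 TPM) overlapped. Nfe2l2, the factor that binds antioxidant response elements, had 196 and 286 TPM. In the replicate contrast 1 of the 60 genes was 2-fold or more apart (Rubcnl, 91 and 358 counts, log2 ratio -1.55) and 6 were 1.5-fold or more apart, against the 4.0% and 14.6% of all genes given above. In direction, 24 of the 60 were higher in replicate 1, beside the 46.5% of all genes, and 36 in replicate 2, among them 7 of the 9 related factors and kinases.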

How the data were processed

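Per the authors' files, 2 poly(A) RNA-seq libraries were quantified on assembly mm10 with GENCODE M21 (per the deposited READMEs). The authors deposited expected counts and TPM per gene, with posterior mean TPM and credibility bounds, and transcript tables that also state what percent of its gene each transcript makes up. A second deposited transcript table gives estimated counts and TPM. The column names are those of RSEM and kallisto, and program versions, strand and filters are not given in the sources used here.

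From these, means and SDs were taken over 2 libraries. Expected counts were rounded and scaled by TMM in edgeR 4.0.16 (R 4.3.3), or by DESeq2 1.42.0 size factors as an alternative, and ratios left out genes averaging under 50 counts. The biological coefficient of variation over 12178 genes was 21.5%. Second-quantification transcripts were summed by gene. Shared sequence was counted as 50-base stretches found in transcripts of another gene. The ratio computation was tested on simulated data. Intervals and floors (3 counts) cover counting error, which is 0.35% for Sqstm1 in replicate 1. Named genes were Sqstm1, the 2 highest and the lowest gene of each step, and genes 1.5-fold apart between replicates or quantifications, with every other one of the 38 given by value. The 38 genes and the other lists were chosen with earlier results of these data known.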

Additional observations from a re-analysis of the deposited data

How the results depend on the processing

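No paired analysis was possible because there is 1 group. The count of 38 genes at 1 TPM or more was also 38 in the second quantification, at 0.5 TPM and in each library alone, and the 60 further genes were 59 in the second quantification. At a minimum of 5 TPM 34 of the 38 genes and 53 of the 62 further ones passed. The median level of the 38 genes, 14.18 TPM, was 12.43 TPM in the second quantification and 16.72 TPM without mitochondrial and ribosomal RNA genes, and 13.61 to 14.12 TPM with 1 library. Sqstm1, 1906 TPM on average, was 1553 TPM and 2242 TPM under the first 2 of these. The fold between the highest and the lowest step median, 12.37, was 14.31 in the second quantification, 12.08 with posterior means and 13.51 to 13.81 with 1 library. The median leading transcript share of 87.68% was 67.72% in the second quantification, and the cause was not tested. The count of genes apart between replicates was 0 at 2-fold under each scaling and count minimum run, and 1 at 1.5-fold. The median log2 ratio of the 38 genes ran from -0.03 to 0.15 over scalings and changed sign with TPM ratios. The medians of the Atg8 family and the cargo receptors exchanged places with replicate 1 alone. Depth limits the lowest genes, where 149 counts give an error of 8.19%, and 2 libraries of 1 group allow neither a test of a condition nor a comparison with unstimulated cells.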
